A study of Mus musculus with 4 samples.

Results

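The 7 genes described here, Il17a, Il17f, Il22, Il23r, Il1r1, Sox13 and Maf, belong to the interleukin-17 (IL-17) pathway of T cells. They were chosen by name among the 31053 genes counted, with earlier results of these data known. They were followed in ɣδT cells, αβT cells and innate lymphoid cells (ILCs) of subcutaneous inguinal white adipose tissue. The cells came from male ChATBAC-eGFP mice, in which a bacterial artificial chromosome makes cells that express choline acetyltransferase carry green fluorescent protein, and live eGFP+ cells of the stromal vascular fraction were sorted, so each value is that of a cell inside this reporter gate. All mice were 5 weeks old at the start and spent 3 weeks at 30 °C, which is thermoneutral for mice. The 30 °C group then stayed at 30 °C for 4 h, and the 4 °C group spent a day at room temperature followed by 4 h at 4 °C. Each group had 2 libraries, each from 4 pooled mice, which are called the first and second 30 °C or 4 °C libraries in that order wherever 4 values are listed.

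IL-17A and IL-17F are related cytokines that are released by ɣδT cells, T helper 17 cells and type 3 ILCs and act on epithelial, stromal and endothelial cells, where they raise chemokines and neutrophil growth factors. IL-22 is a cytokine often made by the same cells. The receptors for IL-23 and IL-1, encoded in part by Il23r and Il1r1, let such cells respond to cytokines of myeloid cells. SOX13 and c-MAF, the product of Maf, are transcription factors needed for the development of IL-17-producing ɣδT cells, and a ɣδT population of this kind is a known resident of adipose tissue.

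On the GRCm38/mm10 build, Il17a lies on chromosome 1 at 20730905-20734496 on the plus strand, and Il17f lies at 20777146-20790617 on the minus strand, so that 42649 bases separate the gene models. Il1r1 (40225080-40317257, plus) and Sox13 (133382303-133424377, minus) are on the same chromosome. Il23r is on chromosome 6 at 67422932-67491855 (minus), Il22 on chromosome 10 at 118204942-118210047 (plus) and Maf on chromosome 8 at 115682942-115707794 (minus). AGGTCA is a core sequence bound by many nuclear receptors. The RefSeq promoter table for GRCm38.p6 held 6 of the 7 members, without Maf. On both strands of the 250 bases before each start, AGGTCA occurred in Il17a, Il17f and Il23r and in no window of Il22, Il1r1 or Sox13. It occurred in 14.0% of all 32841 promoters of that length. TGANTCA, the core bound by AP-1 factors, occurred in 6.75% of promoters and among the members in Il17a only. AACAAT, a core bound by SOX factors, occurred in 9.43% of promoters and in none of the members' windows. The bases upstream of the start are shown for the 3 members with AGGTCA, because these carry the sequence feature that members share, with AGGTCA or its reverse complement TGACCT in capitals. For Il17f, 26 bases inside an exon of a longer transcript were left out, and the window lies within the longer gene model.
Il17a, chr1:20730655-20730904, plus strand: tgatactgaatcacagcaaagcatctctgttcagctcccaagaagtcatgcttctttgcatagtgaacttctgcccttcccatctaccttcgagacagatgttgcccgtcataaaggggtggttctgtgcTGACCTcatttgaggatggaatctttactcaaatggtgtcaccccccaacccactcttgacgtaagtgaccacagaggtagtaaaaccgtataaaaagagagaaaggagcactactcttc
Il17f, chr1:20784271-20784494, minus strand: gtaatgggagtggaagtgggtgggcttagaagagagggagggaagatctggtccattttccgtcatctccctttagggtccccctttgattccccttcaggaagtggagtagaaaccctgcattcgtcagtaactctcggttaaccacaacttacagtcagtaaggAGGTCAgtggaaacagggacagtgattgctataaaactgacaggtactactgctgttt
Il23r, chr6:67491856-67492105, minus strand: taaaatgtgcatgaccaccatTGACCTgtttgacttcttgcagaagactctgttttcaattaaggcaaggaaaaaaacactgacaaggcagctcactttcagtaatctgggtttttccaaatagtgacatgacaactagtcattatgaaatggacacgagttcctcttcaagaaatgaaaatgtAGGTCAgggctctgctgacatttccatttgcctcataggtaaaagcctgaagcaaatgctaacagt
These matches describe the letters of the windows and are neither binding sites nor causes of any value given here.

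The 4 libraries held 26654 cell barcodes, of which 21253 passed the study's filters on genes per cell and mitochondrial share (5191 to 5388 per library). Library totals were 76058112 to 84468931 unique molecular identifiers (UMIs, counts of RNA molecules read from their 3′ ends), and any pair of libraries shared 5 to 14 kept barcodes. ɣδT cells were those with at least 1 UMI of Trdc, the constant region of the T cell receptor δ chain, and of Cd3e, αβT cells had Cd3e and Trac and no Trdc, and ILCs had none of these, no Cd3d and no markers of B cells, macrophages or dendritic cells, but at least 2 of 11 innate lymphoid genes. ɣδT cells numbered 297, 312, 139 and 70, which was 5.76% ± 0.0489 of kept cells at 30 °C and 1.96% ± 0.918 at 4 °C (SD, n = 2 libraries). αβT cells numbered 1604, 1656, 1897 and 1856 (30.8% ± 0.116 and 35.2% ± 0.618), and ILCs 188, 197, 243 and 151 (3.64% ± 0.0245 and 3.69% ± 1.23). The share of ɣδT cells was lower in both 4 °C libraries, with exact two-sided permutation p = 0.33, the smallest that 2 against 2 libraries allow.

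The labels of the classes were checked against markers. In the ɣδT class, 145 of 818 cells (17.7%) rested on a single Trdc UMI and 561 (68.6%) had 5 or more. Tcrg-C1, a constant region of the γ chain that the gate did not use, had a UMI in 55.7% to 84.2% of ɣδT cells and in 1.51% to 5.62% of αβT cells. Trac, the α chain constant region that defines αβT cells, had a UMI in 57.2%, 60.9%, 52.5% and 61.4% of ɣδT cells, and the groups overlapped. It stood at 0.114, 0.141, 0.251 and 0.318 UMIs per Trdc UMI, higher in both 4 °C libraries. The median Trdc count per cell, the base of that ratio, was lower there (12, 11, 7 and 8 UMIs). Of the other αβT markers, Trbc1 had a UMI in 64.3% to 79.2% and Trbc2 in 95.7% to 100% of ɣδT cells. Cd4 had one in 12.5% to 21.4%, Cd5 in 23.7% to 34.3%, Cd28 in 15.1% to 35.7% and Cd8a in 0% to 1.35%. Of ɣδT markers outside the gate, Trgv2 had a UMI in 37.1% to 55.4% and Cd163l1 in 37.1% to 61.5%. The ILC class held Gata3, a transcription factor of type 2 ILCs, in 76.1% to 83.5% of cells and the type 2 cytokine Il13 in 34.5% to 78.8%. Both genes are among the innate lymphoid genes that the ILC gate used. Their shares are therefore partly set by the gate and are no independent check of the label. Klrg1, of the same gate, had a UMI in fewer ILCs (3.31% to 7.45%) than αβT cells (11.2% to 12.4%). Il1rl1 (8.64% to 20.2% against 11.6% to 15.6%) and Areg overlapped between these classes. Il7r, Rora, Il17rb, Il5 and Arg1 were in more ILCs than αβT cells, Il5 in only 3.55% to 10.6% of ILCs. T cell receptor genes that the ILC gate did not use were also counted, with Cd3g in 66.5% to 78.2% and Trbc2 in 87.3% to 90.5% of cells, so the name rests on the absence of Cd3e, Cd3d, Trac and Trdc. A further 277 cells that met the ɣδT gate had over 5000 genes and fell outside the study's filter.

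The UMIs of Il17a were counted almost wholly in ɣδT cells. Of 2905 Il17a UMIs in kept cells, 93.0% were in ɣδT cells, 3.89% in αβT cells and 0.551% in ILCs, and the ɣδT share was 94.4%, 94.8%, 90.7% and 94.7% by library. Of 334 Il17f UMIs, 82.9% were in ɣδT cells and 12.3% in αβT cells. The ɣδT class was 818 of 21253 kept cells.

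**Figure D1:**
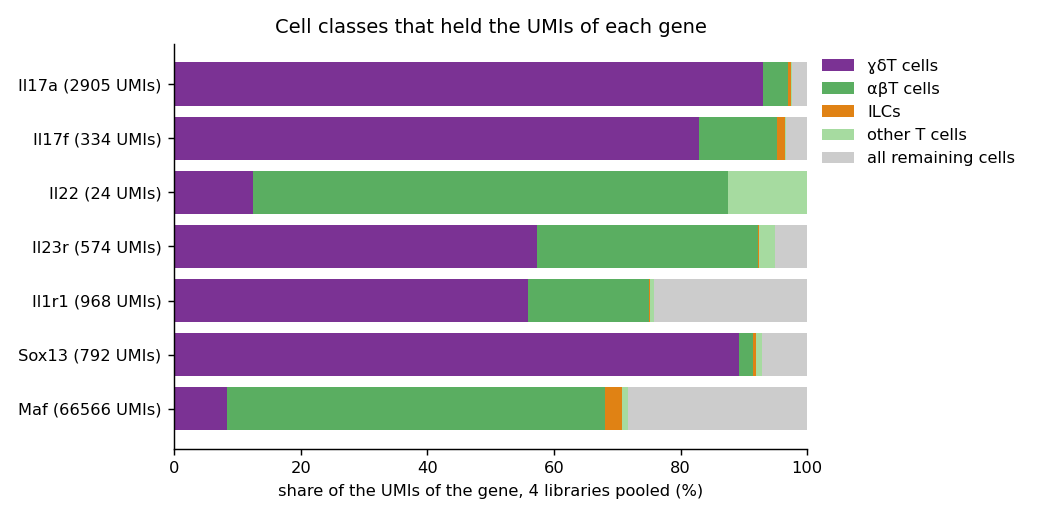
Share of each member's UMIs (percent of the UMIs in all kept cells of the 4 libraries) that came from each cell class. ɣδT cells held 93.0% of Il17a and 82.9% of Il17f UMIs, αβT cells held 75% of the 24 Il22 UMIs, and Maf was spread over several classes.

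Among the cytokines, Il17a in ɣδT cells stood at 251, 115, 686 and 257 CPM (counts scaled to the same UMI total in every class sum), with 968, 490, 1049 and 195 UMIs. In αβT cells it stood at 2.98, 1.23, 2.22 and 0.466 CPM. Every ɣδT value was above every αβT value. ILCs had no Il17a UMI in 3 libraries and 16 in the first 4 °C library, all in 4 cells. The shares of cells had the same order, since 25.3%, 20.2%, 36.7% and 20.0% of ɣδT cells had an Il17a UMI, against 0.323% to 0.499% of αβT cells. In B lineage cells, which should lack the gene, the share was 0.0761% to 0.251%, at median depths of 8206 to 8718 UMIs per cell, against 6232 to 7084 in αβT cells.

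Il17f in ɣδT cells stood at 35.5, 12.4, 45.2 and 23.7 CPM, and in αβT cells at 1.42, 0.682, 0.325 and 0.175 CPM, with no overlap between the classes. ILCs had 1, 0, 0 and 3 Il17f UMIs. Il22 was near the limit of detection in every class, with 3 UMIs in ɣδT cells, 18 in αβT cells (5, 9, 4 and 0) and 0 in ILCs, where 0 of 779 cells allows a share of cells with a UMI of up to 0.385%. An almost identical gene, Iltifb, is counted as a separate feature, so the Il22 counts are uncertain.

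Among the receptors, Il23r stood at 26.4, 32.8, 39.9 and 34.2 CPM in ɣδT cells and at 3.75, 5.25, 1.68 and 1.98 CPM in αβT cells, and ILCs had 1 UMI in the 4 libraries together. Il1r1, which binds IL-1, stood at 50.6, 57.5, 49.1 and 34.2 CPM in ɣδT cells and at 3.04, 4.23, 2.11 and 2.16 CPM in αβT cells, and ILCs had 2 UMIs. For both receptors the ɣδT values lay above all αβT values. Dendritic cells came next to ɣδT cells in the order of Il23r levels, at 3.97 ± 2.82 CPM (SD, n = 4 libraries), followed by T cells without Trdc or Trac UMIs and by αβT cells at 3.17 ± 1.66 CPM, and those neighbours overlapped. Il1r1 was highest in stromal cells, at 58.7, 159, 82.0 and 122 CPM, each above every ɣδT value, while ɣδT cells, more numerous, held 55.9% of all Il1r1 UMIs.

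Of the transcription factors, Sox13 stood at 66.1, 60.5, 85.1 and 84.3 CPM in ɣδT cells, where 45.5% to 56.8% of cells had a UMI. αβT cells had 17 Sox13 UMIs (1, 9, 4 and 3) and ILCs 4. Stromal cells came next, at 3.54 ± 4.34 CPM (SD, n = 4), and no other class reached the ɣδT level. Maf did not follow this pattern. It stood at 470, 491, 713 and 685 CPM in ɣδT cells, at 520, 584, 622 and 680 CPM in αβT cells and at 281, 269, 288 and 296 CPM in ILCs, and the ɣδT and αβT values overlapped while both were above all ILC values. Macrophages had the highest Maf level, at 1418 ± 104 CPM, followed by lymphatic endothelial cells at 1005 ± 156 CPM, and B lineage cells had 16.1 ± 4.76 CPM (SD, n = 4).

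**Figure D2:**
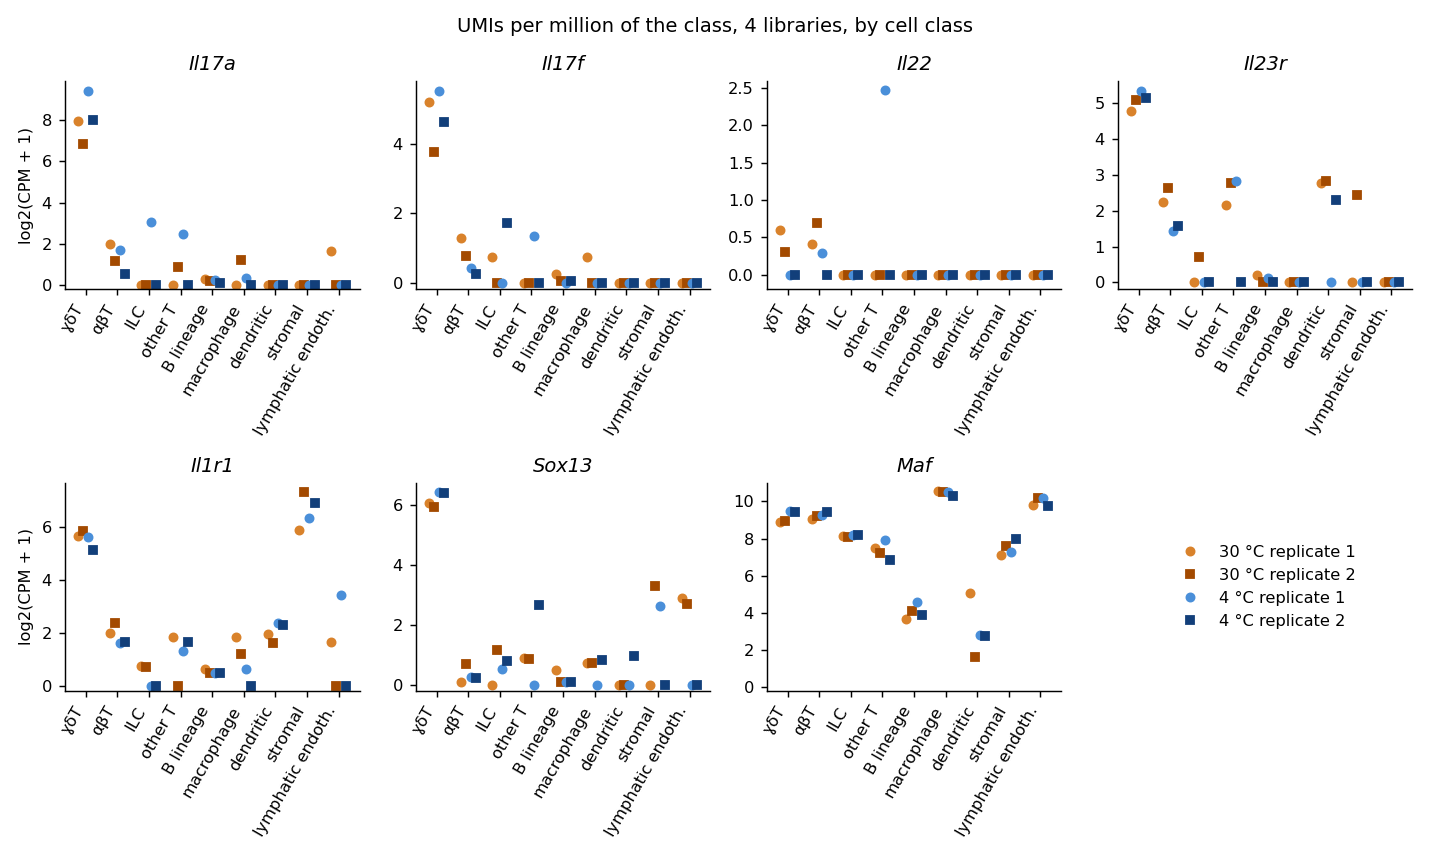
Level of each member in each cell class (y axis, log2(CPM + 1) of the class sum, with its own scale for each gene), 1 point per library, orange at 30 °C and blue at 4 °C. Il17a, Il17f, Il23r and Sox13 are highest in ɣδT cells, Il1r1 in stromal cells and Maf in macrophages.

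The classes were compared with edgeR's quasi-likelihood test on the 12 class sums with the library as a factor, and with UMI ratios whose 95% intervals cover counting error only. Against αβT cells, 5 of the 6 members tested were higher in ɣδT cells at an adjusted p under 0.05, where 29.2% of 10043 genes passed and 15.3% were higher. The filter on low counts ran over all 12 sums, and these 5 members cleared it only with their ɣδT sums. They were tested because they are high in ɣδT cells, so neither this count nor that against ILCs is independent evidence of direction. Sox13 differed by a log2 fold change of 8.09 (SE 0.26, adjusted p = 1.2e-10 by edgeR's quasi-likelihood test with Benjamini-Hochberg adjustment), Il17a by 7.52 (SE 0.33, adjusted p = 1.84e-09), Il17f by 5.47 (SE 0.44), Il1r1 by 4.08 (SE 0.16) and Il23r by 3.39 (SE 0.27). As UMI ratios of the 4 libraries together, Il17a was 151-fold higher (125 to 184), Il17f 42.7-fold (30.7 to 60.8), Il1r1 18.5-fold (15.6 to 21.9) and Il23r 10.4-fold (8.69 to 12.4). By library the ratios were 84.3, 93.7, 309 and 551 for Il17a and 25.0, 18.2, 139 and 136 for Il17f. They were 16.6, 13.6, 23.2 and 15.9 for Il1r1 and 7.05, 6.26, 23.8 and 17.3 for Il23r. For Il17a, Il17f and Il23r no library lay within the pooled interval, which leaves out the spread between libraries. Maf, with a log2 fold change of -0.02 (SE 0.082, edgeR adjusted p = 0.922), did not pass the test, and with the cells of over 5000 genes kept it was lower in ɣδT cells (-0.46, edgeR adjusted p = 0.00901). All 6 members tested passed against ILCs, where 22.5% of 10043 genes passed and 11.6% were higher in ɣδT cells, and Maf was higher by 0.94 (SE 0.086, edgeR adjusted p = 3.91e-06). Because ILCs had 16 or fewer UMIs of each other member, the UMI ratios are given in place of fitted folds: Il17a was 106-fold higher (65.3 to 186), Il17f 43.6-fold (16.8 to 161) and Sox13 111-fold (43.3 to 409). The Maf difference from ILCs was 0.12 (edgeR adjusted p = 0.451) with the cells of over 5000 genes kept.

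Between ILCs and αβT cells, 3 of the 6 members tested were lower in ILCs, where 31.4% of 10043 genes passed and 14.3% were lower. Maf differed by -0.96 (SE 0.085, edgeR adjusted p = 1.05e-06), and Il1r1 and Il23r, with 2 and 1 UMIs in ILCs, also passed (edgeR adjusted p = 0.00163 and 0.0138). Il17a, Il17f and Sox13, with 16, 4 and 4 UMIs in ILCs, did not pass, with adjusted p of 0.749, 0.975 and 0.378 by the same edgeR test. Apart from Maf, the members cleared the filter on low counts only through ɣδT cells, a class outside this comparison. The count of 3 is therefore no result about the members as a set.

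The other genes of the pathway were read from 6 lists, with the members left out. Over all genes tested, 15.3% were called higher and 13.9% lower in ɣδT than in αβT cells. Of 20 tested genes known from IL-17-producing ɣδT cells, 18 were higher and 2 lower in ɣδT than in αβT cells, among them Cd163l1, a scavenger receptor (log2 fold change 8.04), Serpinb1a, a protease inhibitor (3.40), and Cxcr6, a chemokine receptor (3.07), with a list median of 2.38 beside -0.01 over all genes. The list was drawn up for this cell type, so its count is no independent evidence of direction. Of 17 regulators of the type 17 programme, transcription factors and the kinase Blk, 8 were higher and 6 lower (median -0.08), with Blk, of the Src family, higher by 4.55 and Zbtb16, which encodes PLZF, by 3.95. Of 3 tested IL-17 family ligands and receptors, Il17re, a subunit of the IL-17C receptor, was higher by 3.83 and Il17ra by 0.84. In the interferon-γ programme, which marks the other main kind of ɣδT cell, 1 of 15 genes was higher (Klrk1, 3.84) and 6 were lower, among them Cd27 (-1.98) and Cxcr3 (-1.78).

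Between temperatures within ɣδT cells, 1 of the 6 members tested passed at an adjusted p under 0.05, where 4.5% of 9620 genes passed (1.38% higher and 3.12% lower at 4 °C). That member was Maf. At 30 °C its level was 470 and 491 CPM, at 4 °C it was 713 and 685 CPM, and the groups did not overlap. The log2 fold change was 0.45 (SE 0.098, adjusted p = 0.0308 by edgeR's quasi-likelihood test with Benjamini-Hochberg adjustment), a 1.37-fold higher level. The call was lost without the first 30 °C library (edgeR adjusted p = 0.105) and without the first 4 °C library (0.0751). It was also lost among cells with no Mki67 or Top2a UMI (log2 fold change 0.14) and among cells with no Trac UMI (log2 fold change 0.28). With cells of over 5000 genes kept, the log2 fold change turned to -0.06.

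Il17a did not pass the test between temperatures in ɣδT cells. Its values at 4 °C, 686 and 257 CPM, were above those at 30 °C, 251 and 115 CPM, but the second 4 °C library lay only just above the first 30 °C library. The means were 183 ± 96.2 and 472 ± 304 CPM (SD, n = 2), the log2 fold change was 1.31 (SE 0.40) and the adjusted p was 0.104 by the same edgeR test. Without the first 4 °C library the log2 fold change was 0.42 (edgeR adjusted p = 0.523), and without the other 3 in turn it passed the threshold at 0.85 to 1.96. Among cells without a Mki67 or Top2a UMI, markers of dividing cells, Il17a stood at 247, 249, 731 and 421 CPM and passed (1.18, edgeR adjusted p = 0.0242). The last of these levels rested on 144 UMIs. The shares of those cells with an Il17a UMI were 15.9%, 20.8%, 38.3% and 15.4%, so the groups overlapped and the second 4 °C library was lowest. With cells of over 5000 genes kept the Il17a levels were 188, 53.6, 299 and 70.5 CPM, and the groups overlapped.

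The remaining members were not called in ɣδT cells. Il17f overlapped between groups (0.55, SE 0.45, edgeR adjusted p = 0.548), and the share of cells with an Il17f UMI was 7.74% and 2.88% at 30 °C and 11.5% and 10.0% at 4 °C. Thinned to 5419 UMIs per cell, these shares were 6.02%, 1.82%, 8.33% and 10.9%, with the 4 °C libraries higher. Sox13 stood higher in both 4 °C libraries, by 0.33 (SE 0.13, edgeR adjusted p = 0.195), with a thinned share of cells of 29.3%, 31.8%, 43.2% and 39.1%. Il1r1 stood lower in both 4 °C libraries, by a log2 fold change of -0.41 (SE 0.19, edgeR adjusted p = 0.270). Il23r differed by 0.25 (SE 0.21, edgeR adjusted p = 0.555), with both 4 °C values above both 30 °C values by little. Beside these values, the summed level of the 7 αβT markers within the ɣδT class was 1855, 1985, 2393 and 2534 CPM and that of 4 proliferation genes 1966, 1836, 1085 and 1069 CPM, and the part of either in the temperature differences was not tested beyond the cell settings given above.

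**Figure D3:**
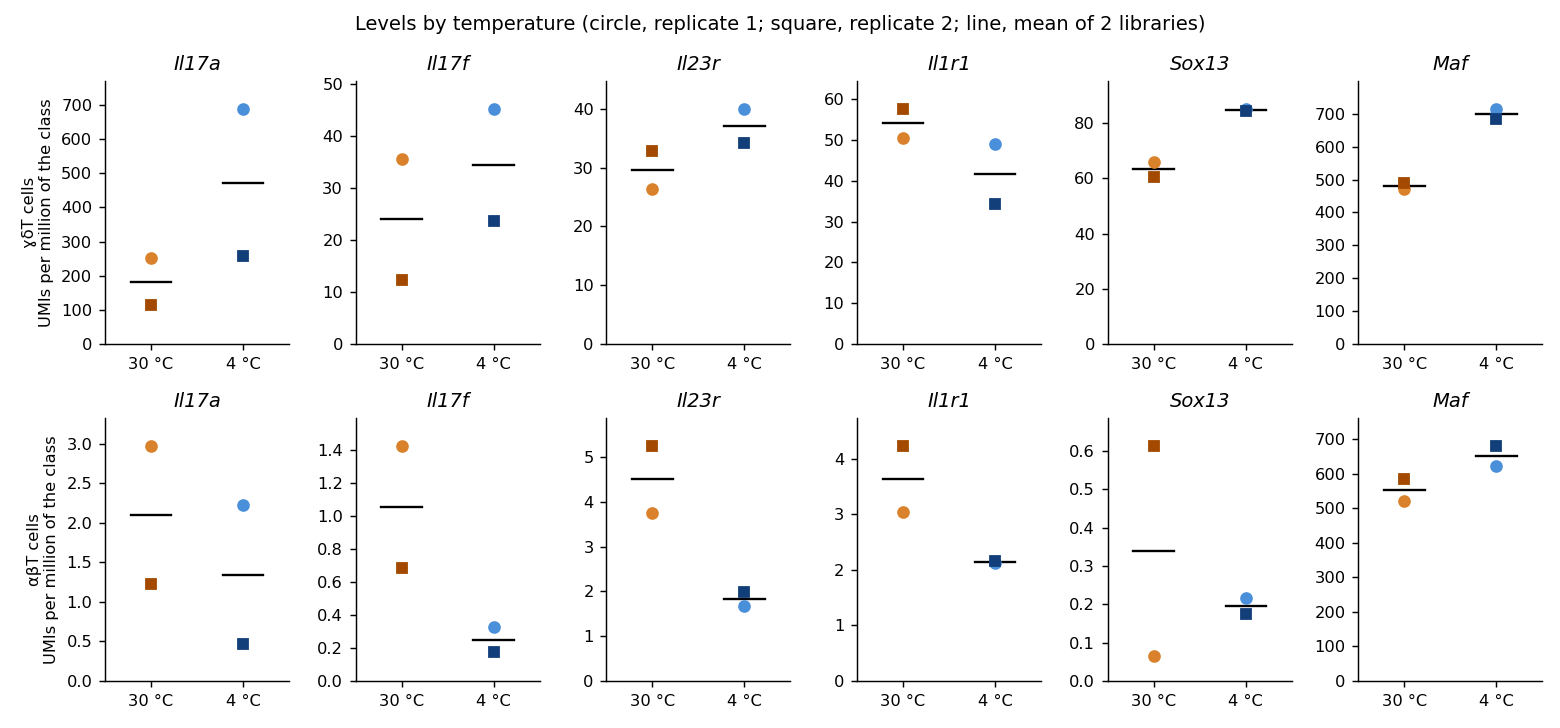
Level of the members (CPM of the class sum) in each library at 30 °C and 4 °C, with ɣδT cells in the upper row and αβT cells in the lower, 1 point per library, a line at the mean of 2 and its own scale for each gene. In ɣδT cells the 30 °C values of Maf are 470 and 491 CPM and the 4 °C values 713 and 685 CPM, and the 2 Il17a values at 4 °C, 686 and 257 CPM, lie far apart.

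In αβT cells, 1 of the 5 members tested passed between temperatures, where 3.5% of 12346 genes passed (1.53% higher and 1.97% lower at 4 °C). Il23r had 3.75 and 5.25 CPM at 30 °C but 1.68 and 1.98 CPM at 4 °C, from 58, 77, 31 and 34 UMIs, and both 4 °C libraries were lower. The log2 fold change was -1.36 (SE 0.26, edgeR adjusted p = 0.0441), 2.57-fold lower at 4 °C. The share of αβT cells with an Il23r UMI was 2.93%, 3.26%, 1.27% and 1.45%, and 2.07%, 2.61%, 1.26% and 1.53% at equal depth, against 0% to 0.167% of B lineage cells. The call rested on every library, since leaving out any 1 gave edgeR adjusted p of 0.0746 to 0.190, with log2 fold changes of -1.58 to -1.11. Il17f had 22, 10, 6 and 3 UMIs, with both 4 °C levels lower (-2.10, SE 0.61, edgeR adjusted p = 0.108), and Il1r1 levels were also lower in both (-0.83, SE 0.26, edgeR adjusted p = 0.126). Il17a, counted in only 30 αβT cells, overlapped between groups (-0.70, SE 0.69, edgeR adjusted p = 0.588). Maf stood higher in both 4 °C libraries, by 0.17 (SE 0.066, edgeR adjusted p = 0.194). In the αβT class the summed level of B cell markers was 4456, 3077, 2218 and 2064 CPM, lower in both 4 °C libraries, and its part in these values was not tested beyond the exclusion of cells with a Cd79a UMI. Trgv2, a segment of the γ chain, stood at 3.30, 3.61, 1.41 and 0.875 CPM in αβT cells. Of 7 ɣδT markers, 3 were lower and 2 higher in αβT cells in both 4 °C libraries. The part of ɣδT transcripts in the αβT values was not tested.

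In ILCs, Maf was the only member with enough UMIs to test, and it did not pass, with a log2 fold change of 0.03 (SE 0.10, edgeR adjusted p = 0.931), where 5.66% of 8380 genes passed (2.23% higher and 3.42% lower at 4 °C). The 16 Il17a UMIs were all in the first 4 °C library, and the highest cell held 11 of them. With at most 3 UMIs of any other member in a library, no difference between temperatures was detectable at this depth.

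Whether the temperature difference itself differed between classes was tested as an interaction in the fit of all 12 sums. For ɣδT against αβT cells, 1 of 6 members passed, where 0.464% of 10569 genes passed (0.208% higher and 0.255% lower). The Il17a interaction was 2.01 on the log2 scale (SE 0.35, adjusted p = 0.0311 by edgeR's quasi-likelihood test with Benjamini-Hochberg adjustment). Within a library, the Il17a level in ɣδT cells was divided by that in αβT cells. The 30 °C libraries gave ratios of 84.3 (62.7 to 116) and 93.7 (58.6 to 159), and the 4 °C libraries gave 309 (226 to 433) and 551 (274 to 1293). Both ratios at 4 °C were above both at 30 °C. Their counting intervals did not overlap those at 30 °C, but such intervals treat each UMI as independent. They leave out the spread between cells and between pools. In the second 4 °C library, the 5 highest ɣδT cells held 81.5% of the Il17a UMIs of that class. The αβT side of the ratio rested on 46, 18, 41 and 8 UMIs, and the part of ɣδT transcripts in it was not tested. The same ratio for Il23r was 7.05, 6.26, 23.8 and 17.3, with an interaction of 1.62 (SE 0.33) that did not pass (edgeR adjusted p = 0.0515), and for Il17f it was 25.0, 18.2, 139 and 136 (2.55, SE 0.72, adjusted p = 0.157). The Il17a call was lost without the first or second 30 °C library (edgeR adjusted p = 0.197 and 0.0932), without the first 4 °C library (0.0517) and under 5 other settings. For Maf, the interaction was 0.29 (edgeR adjusted p = 0.298) against αβT cells and 0.42 (SE 0.12, edgeR adjusted p = 0.0711) against ILCs, where 2.56% of 10569 genes passed (0.757% higher and 1.81% lower) and the other members had too few UMIs in ILCs.

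**Figure D4:**
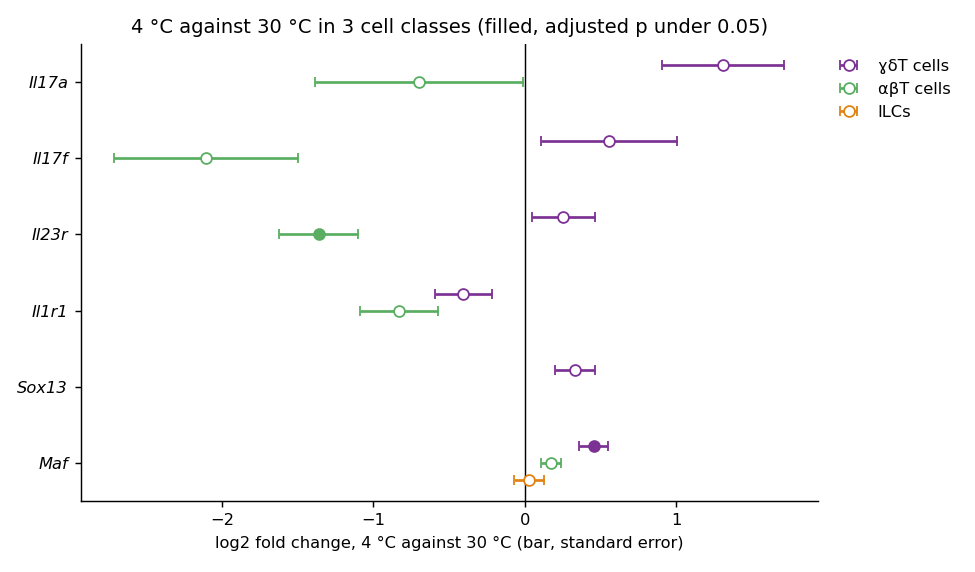
Log2 fold change of each tested member at 4 °C against 30 °C in ɣδT cells, αβT cells and ILCs, with bars of 1 SE from edgeR's fit over 2 against 2 libraries and filled points for adjusted p under 0.05. Maf in ɣδT cells (0.45) and Il23r in αβT cells (-1.36) pass, and Il17a points up in ɣδT cells (1.31) and down in αβT cells (-0.70).

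Il17a counts came from few cells. Of 818 ɣδT cells, 203 had an Il17a UMI, 53 of these had exactly 1, and 64 cells with 10 or more UMIs held 2271 of the 2702 UMIs. The highest cell held 132, 62, 215 and 72 UMIs by library, and the 5 highest cells held 36.9%, 49.8%, 52.1% and 81.5% of each library's Il17a UMIs. In the second 4 °C library, with 70 ɣδT cells, the level of 257 CPM therefore rested largely on 5 cells. The share of ɣδT cells with an Il17a UMI, which does not weigh such cells more, was 22.9%, 14.6%, 31.8% and 18.8% at equal depth, and the groups overlapped.

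**Figure D5:**
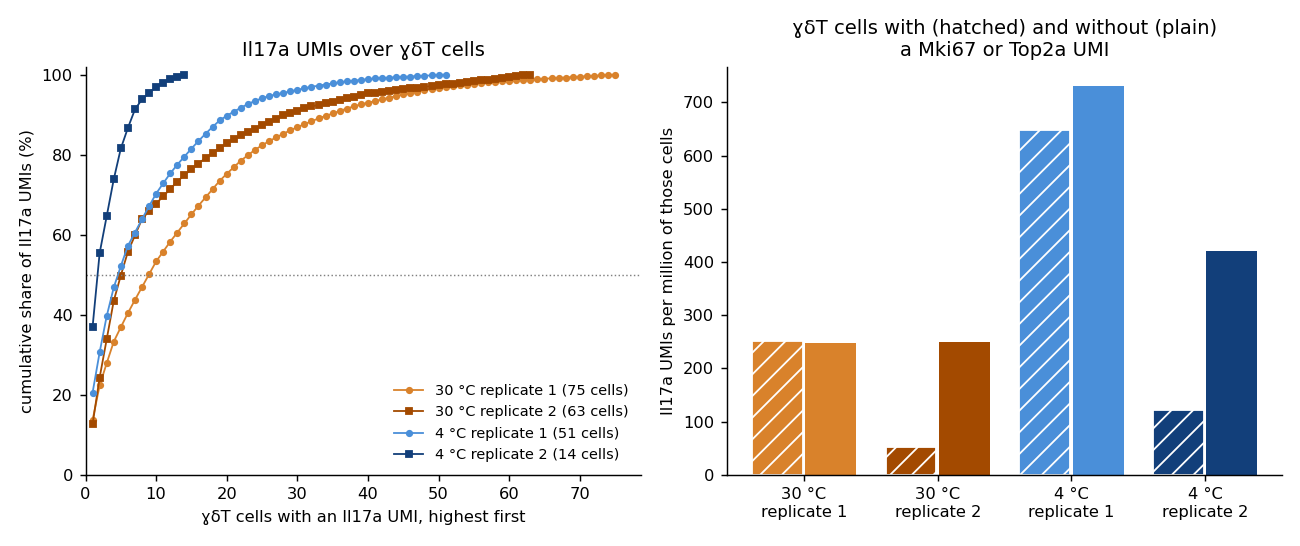
Cumulative share of each library's Il17a UMIs in ɣδT cells (percent) against cells ranked from the highest Il17a count, 1 line per library (left), and Il17a level (CPM) of ɣδT cells with and without a Mki67 or Top2a UMI (right, 1 bar per library and kind of cell). The 5 highest cells hold 36.9% to 81.5% of a library's UMIs. In the cells without a Mki67 or Top2a UMI the 30 °C levels are 247 and 249 CPM and the 4 °C levels 731 and 421 CPM. The shares of those cells with an Il17a UMI, not drawn, overlap between temperatures.

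Cells with Il17a more often carried the other members. Il17f had a UMI in 19.7% of the 203 Il17a-positive ɣδT cells and in 2.44% of the rest, and by library the pairs were 21.3% and 3.15%, 11.1% and 0.803%, 25.5% and 3.41%, and 28.6% and 5.36%. Of 55 cells with Il17f, 40 also had Il17a. Il1r1 was counted in 54.7% against 29.8%, Sox13 in 66.0% against 42.6%, Il23r in 34.5% against 25.4% and Maf in 99.0% against 89.6% of cells. The positive cells had a median of 10437 UMIs against 9278 in the rest, with more in 3 libraries and fewer in the second 30 °C library (8801 against 9429), and these shares were not set to equal depth and carry no test. Division also varied within the class: 398 of 818 ɣδT cells (48.7%) had a Mki67 or Top2a UMI, 50.9% ± 6.65 at 30 °C and 43.0% ± 1.81 at 4 °C (SD, n = 2). Maf stood at 400, 411, 579 and 739 CPM in those cells and at 650, 661, 872 and 619 CPM in the others, so that among the others its groups overlapped.

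The genes whose level pattern was most like that of Il17a were named by Pearson's r of log2(CPM + 1) over 32 sums, 8 classes in 4 libraries, among 13079 genes. With the members left out, the leading 5 were Trdv5 (0.946), Cd163l1 (0.936), Trgv2 (0.932), Lingo4 (0.927) and Tcrg-V4 (0.927), and 3 of these are segments of the γ and δ receptor chains. Among the members, r was 0.943 for Il17f, 0.847 for Sox13, 0.786 for Il23r, 0.438 for Il1r1 and 0.358 for Maf. The sums share libraries and the ɣδT gate, so these are descriptions.

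Across the lists, few pathway genes beside the members were called between temperatures in ɣδT cells, where 1.38% of genes rose and 3.12% fell. Of the 17 regulators of the type 17 programme 3 rose at 4 °C and none fell, with a list median of 0.27 beside 0.00 over all genes. Nfkbiz, which encodes a nuclear IκB protein that is itself a target of IL-1 and IL-17 signals, stood at 39.4, 37.1, 118 and 65.8 CPM (1.25, edgeR adjusted p = 0.0123), Tcf7, which encodes TCF-1, at 90.0, 76.0, 170 and 137 CPM (0.82, 0.0124), and Irf4 at 26.7, 26.7, 48.4 and 72.4 CPM (1.03, 0.0257). All 3 were higher in both 4 °C libraries. Of 20 genes known from IL-17-producing ɣδT cells, 2 rose and 2 fell. Tnf, a cytokine, stood at 84.3, 79.5, 244 and 167 CPM (1.27, edgeR adjusted p = 0.00326), and Csf2, which encodes GM-CSF, at 10.6, 6.10, 32.1 and 23.7 CPM (1.70, 0.0163). Ltb4r1, a leukotriene receptor, stood at 305, 339, 169 and 129 CPM (-1.18, 0.00266), and Lgals3, a galectin, at 815, 586, 372 and 362 CPM (-1.02, 0.00575). None of the 4 IL-17 family genes tested and none of 11 genes of the inducing cytokines and their receptors passed. Cd27 of the interferon-γ programme (1 of 15) stood at 36.3, 40.6, 72.6 and 119 CPM and rose, as did Zc3h12a, an RNase that limits IL-17 signals (1 of 11 downstream genes), at 14.8, 13.1, 35.3 and 27.7 CPM. Of these 9 calls, Ltb4r1 alone held among cells without a Mki67 or Top2a UMI, and 5 held among cells with no Trac UMI, where Irf4, Csf2, Cd27 and Zc3h12a were not called. Zc3h12a was also not called with DESeq2 or without cells with a Cd79a UMI. Nfkbiz, Tcf7, Csf2 and Zc3h12a were not called without the first 4 °C library, nor was Zc3h12a without the second 30 °C library. With cells of over 5000 genes kept, edgeR called 0 genes in ɣδT cells, with 1238 at an unadjusted p under 0.05, so that none of these calls was made.

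In αβT cells, 1.53% of all genes tested were called higher and 1.97% lower at 4 °C. The same lists gave there 1 of 17 regulators (Nfkbiz, 0.45, higher at 4 °C). Of 20 genes of IL-17-producing ɣδT cells they gave 4 (Tnf higher by 0.83, and Ltb4r1, Lgals3 and Serpinb1a lower), and 4 of 14 inducing genes. Among the latter, Il7r, the receptor for IL-7, stood at 547, 533, 209 and 203 CPM in αβT cells (-1.46) and at 590, 689, 724 and 450 CPM in ɣδT cells, where it was not called, and its interaction passed at 1.25 (edgeR adjusted p = 0.016). Ifng, which encodes interferon-γ, rose by 1.27 in αβT cells, where 3 of 15 genes of its programme were called. The αβT call of Nfkbiz was lost without either 30 °C library and that of Serpinb1a without the second library of either temperature, and the Il7r interaction was lost without the first 4 °C library. In ILCs, 2.23% of all genes tested were called higher and 3.42% lower at 4 °C. There 5 of 15 regulators were called (2 higher and 3 lower at 4 °C). Il17rb, the receptor for IL-25, stood at 117, 108, 58.0 and 63.5 CPM in ILCs and was lower (-0.95). Of 9 tested genes of the interferon-γ programme, 5 were higher in ILCs at 4 °C and none lower, with a list median of 1.48 beside -0.01 over all genes. Nkg7, a protein of cytotoxic granules that is also in the natural killer list, stood at 38.5, 87.1, 137 and 250.2 CPM (1.52, edgeR adjusted p = 0.00141), Tbx21, which encodes T-bet, at 0.676, 3.73, 8.41 and 26.5 CPM (2.72, 0.0167) and Cd27 at 107, 93.9, 161 and 144 CPM (0.56, 0.0172). Gzma, a granzyme, had 0, 20, 2 and 791 UMIs, so that its call rested on the second 4 °C library. Tbx21 was not called without that library or without the first 30 °C library, and Cd27 was not called without the second 30 °C or the first 4 °C library. Beside these, the summed level of lymphatic endothelial markers in the ILC class was 39.2, 38.6, 0.467 and 0 CPM and that of natural killer markers 39.2, 117, 143 and 352 CPM, and their part in the ILC values was not tested.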

How the data were processed

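Single-cell RNA sequencing libraries of eGFP+ cells were made with a 3′ kit. The authors aligned the reads to mm10 and deposited raw UMI counts per gene and cell barcode, made with Cell Ranger 3.0.0 per the file headers (3.1.0 in the submitters' processing notes). These counts were used without further normalization.

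Cells with over 200 and under 5000 genes and under 7.5% mitochondrial UMIs were kept, after a first limit of 100 genes per cell, and classes were gated on raw UMIs. UMIs were summed per library and class, and genes were tested with edgeR 4.0.16 (TMM, filterByExpr, quasi-likelihood, Benjamini-Hochberg, threshold 0.05) under R 4.3.3, within each class between temperatures, and over 12 sums with the library as a factor between classes and for interactions. Every adjusted p comes from this edgeR test unless another tool is named. DESeq2 1.42.0, other cell filters and gates, a replicate block and each library left out were alternatives. Scrublet (scanpy 1.11.5) marked doublets, which were kept in the main sums. Shares of cells were compared by two-sided exact permutation tests (scipy 1.17.1), and ratios of UMIs carry exact 95% intervals of counting error. Shares at equal depth used cells thinned to 5419 UMIs, the 10th percentile in ɣδT cells. The edgeR fits were tested on simulated data.

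The 2 libraries of a temperature are separate pools of mice. In tests between temperatures within a class, p-values measure the spread between such pools. In tests between classes and of interactions the library is a factor, so p-values there measure the spread of class differences between libraries. The members and lists were chosen with earlier results of these data known. Named list genes are up to 4 per list and comparison by smallest adjusted p among those called, and fewer are named where counts suffice. The alternative with Cd3d and Trac allowed in ILCs was added after seeing the data. Results of 1 gene of the lists are not reported here.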

Additional observations from a re-analysis of the deposited data

Results flagged for a closer look

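The temperature difference of Il17a was flagged because it differed between ɣδT and αβT cells by a test of the difference itself, an interaction of 2.01 on the log2 scale (SE 0.35, adjusted p = 0.0311 by edgeR's quasi-likelihood test with Benjamini-Hochberg adjustment, n = 4 libraries). Neither difference passed on its own, at 1.31 in ɣδT cells and -0.70 in αβT cells. The ratio of the Il17a level in ɣδT to that in αβT cells was higher in 2 of 2 libraries at 4 °C than in either library at 30 °C. The αβT levels rested on 30 cells with an Il17a UMI, and DESeq2 did not call the interaction (2.28, adjusted p = 0.693).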

How the results depend on the processing

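The 5 members that were higher in ɣδT than in αβT cells passed under every alternative that gave a value. The values between temperatures moved more. In ɣδT cells the count of genes called was 234 with DESeq2, 993 with no filter on low counts, 0 (1238 at an unadjusted p under 0.05 by edgeR) with cells of over 5000 genes kept (the limit on genes lifted), 46 without cells with a Mki67 or Top2a UMI and 68 with no Trac UMI. Il17a passed there at 1.28 with no filter and at 1.18 without Mki67 or Top2a cells. Its log2 fold change ran from 0.42 to 1.96 as each library was left out, Il17f from -0.0718 to 1.44 and Maf from 0.41 to 0.49. With this limit lifted, Il23r turned to -0.33, Sox13 to -0.0695 and Maf to -0.0579. Without Mki67 or Top2a cells Il23r turned to -0.30 and Maf was 0.14, and Maf was 0.28 with no Trac UMI, both without a call.

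Replicate numbers are shared between temperatures but nothing in the labels pairs the pools. Deviations of same-numbered libraries from their group means had a Pearson r of -0.075 in ɣδT cells, 0.112 in αβT cells and 0.096 in ILCs. With the replicate block, 886 genes were called in ɣδT cells and 978 in αβT cells. Il17a passed in ɣδT cells under the block (1.23), as did Il17f (-2.10) and Maf (0.17) in αβT cells, and no other member's call changed.

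In αβT cells the count of genes called was 187 with the limit lifted and 157 to 695 as each library was left out, lowest without the first 30 °C library and highest without the first 4 °C library. Il17a there ran from -2.24 to 0.0825 and Il23r from -1.58 to -1.11 in the same way, and Il23r was -1.22 without a call with the limit lifted. In ILCs the count was 144 with DESeq2, 724 with no filter, 314 with 4 or more innate lymphoid genes and 250 to 461 as each library was left out. Maf there was -0.0337 with the limit lifted, -0.0334 with Cd3d and Trac allowed and -0.00416 to 0.0581 as each library was left out, and Gzma, a granzyme of the interferon-γ list, ran from -2.72 to 11.8, negative without the second 4 °C library.

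Between classes, 1936 to 2728 genes were called for ɣδT against αβT cells and 1333 to 2137 for ɣδT cells against ILCs as each library was left out. The latter count was 5177 with the limit lifted and 1466 without Mki67 or Top2a cells. Maf in ɣδT against αβT cells ran from -0.0899 to 0.0426 as each library was left out, and was -0.46 with a call with the limit lifted, 0.0603 with at least 2 Trdc UMIs and 0.00176 with no Trac UMI. Against ILCs it was 0.12 without a call with the limit lifted. In ILCs against αβT cells, Il17a was -1.19 with DESeq2 and ran from -6.33 to 1.17 as each library was left out, and Il17f ran from -1.86 to 0.66 and was -0.18 without Cd79a cells, -1.59 with 4 or more innate lymphoid genes and -0.39 with Cd3d and Trac allowed.

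For the interaction of ɣδT with αβT cells, 310 genes were called with no filter, 0 with the limit lifted, 21 without Scrublet-marked cells, 17 without Cd79a cells, 10 without Mki67 or Top2a cells, 0 with no Trac UMI and 7 to 42 as each library was left out. At an unadjusted p under 0.05 by edgeR, 530 and 833 genes stood beside the counts of 0. The Il17a interaction was not called at 2.28 with DESeq2, 1.25 with the limit lifted, 1.96 without Scrublet-marked cells, 2.71 without Mki67 or Top2a cells and 2.00 with no Trac UMI, and ran from 1.78 to 2.59 as each library was left out. Il17f (2.52) and Il23r (1.59) were called with no filter, and Il23r (2.09) without Cd79a cells. Sox13 ran from -1.04 to 2.02 as each library was left out, and Maf was -0.14 with the limit lifted. Against ILCs, 607 genes were called with no filter, 5 with the limit lifted, 2 without Mki67 or Top2a cells, 5 with no Trac UMI, 153 with 4 or more innate lymphoid genes, 554 with Cd3d and Trac allowed and 39 to 181 as each library was left out. The Maf interaction was called at 0.43 with DESeq2, 0.39 with no filter, 0.47 without Cd79a cells, 0.50 with at least 2 Trdc UMIs and 0.51 with Cd3d and Trac allowed, and was -0.0765 with the limit lifted and -0.0207 without Mki67 or Top2a cells.

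The fall in the share of ɣδT cells among kept cells was -4.78 percentage points with the limit lifted, -3.07 with at least 2 Trdc UMIs and -1.48 with no Trac UMI, beside -3.80 as reported. The difference in the share of αβT cells was 5.36 with a mitochondrial limit of 15%. The share of ɣδT cells with an Il22 UMI differed by -0.67 to -0.32 as 30 °C libraries were left out. The causes were not tested. Depth limits Il22 in every class and Il17a, Il17f, Il23r, Il1r1 and Sox13 in ILCs, and DESeq2 gave no adjusted p for 12 values, which were left out.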
